A study of Mus musculus with 16 samples.

Results

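The 8 genes described here are Nfe2l2, which encodes the transcription factor NRF2, its inhibitor Keap1, and 6 genes known as NRF2 targets in many tissues: Srxn1, Txnrd1, Nqo1, Gclc, Gclm and Hmox1. They were chosen by name, with earlier results of these data known. Each matched 1 of the 46078 rows of the gene count table, and all 8 passed the filter on low counts. RNA-seq had been done on livers of mice, whose strain is given as C56B6/J in the sample labels and as C57BL6/J in the methods of the study; the methods describe the animals as male and 8 weeks old when the diets began. For 16 weeks the animals ate the control diet, abbreviated CD, or the high-fat diet, abbreviated HFD and with 60% of calories from fat. Their livers were collected in the ad libitum fed state or after a fast of 16 h, giving the groups CD fed, CD fast, HFD fed and HFD fast with 4 libraries each and 16 in all. Both the diet and the feeding state were compared between separate animals.

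NRF2 is a basic leucine zipper factor that pairs with small MAF proteins and activates genes whose promoters or enhancers hold antioxidant response elements. KEAP1 is the adaptor of a CUL3 ubiquitin ligase that marks NRF2 for degradation, and modification of cysteines in KEAP1 by oxidants or electrophiles lets NRF2 accumulate. NRF2 is therefore controlled largely at the protein level, which RNA-seq does not measure. In the liver the pathway is known for its part in drug detoxification and in the supply of glutathione and NADPH.

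Libraries held 41364448 to 57583153 counts each. Levels are given as CPM, a gene's share of the counts of its library after TMM scaling (trimmed mean of M-values), and a detection floor of 3 counts corresponded to 0.0536 to 0.0767 CPM. Nqo1 was the member with the fewest counts, 227 to 613 per library, and the other 7 members had at least 498 in each. Intervals and floors cover counting error or the spread between libraries, and the labels give no more about the replicates than their numbers. Hepatocyte transcripts dominated all libraries, with 79147 to 144317 CPM summed over 6 markers including albumin, and none of these 6 was at 0 in any library. Because these are bulk samples, fewer cells of a type and less RNA per cell cannot be told apart. The HFD fed and HFD fast libraries numbered 4 stood apart from the other HFD libraries. They had the highest sums of 6 markers of lipid-associated macrophages (83.1 and 124 CPM, against 31.1 to 51.9 CPM in the other HFD libraries) and of 6 stellate cell and fibroblast markers (373 and 371 CPM, against 211 to 269 CPM), and calls and counts that moved when both were left out are given that way too. HFD fast replicate 2 had 70.2 CPM summed over 4 adipocyte markers, against 0.356 to 15.1 CPM in the other 15 libraries, and nearly all of it was Cfd (up to 70.1 CPM), since Adipoq, Plin1 and Lep stayed at or below 0.976, 0.394 and 0.781 CPM.

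The members are spread over 5 chromosomes of the mouse genome (GRCm38, GENCODE positions). Nfe2l2 (ENSMUSG00000015839) lies at chr2:75675513-75704641 on the minus strand and Srxn1 (ENSMUSG00000032802) at chr2:152105516-152111376 on the plus strand. Keap1 (ENSMUSG00000003308, chr9:21229730-21239361, minus strand) and Gclc (ENSMUSG00000032350, chr9:77754535-77794485, plus strand) share chromosome 9. Nqo1 (ENSMUSG00000003849, chr8:107388225-107403206, minus strand) and Hmox1 (ENSMUSG00000005413, chr8:75093621-75100589, plus strand) share chromosome 8. Gclm (ENSMUSG00000028124) is at chr3:122245557-122270732 and Txnrd1 (ENSMUSG00000020250) at chr10:82833951-82897712, both on the plus strand. Counts of a whole gene were used, so exons, introns and untranslated regions were not separated. Keap1 shares 510 exon bases with the antisense gene Gm16754, which had 104 counts over all 16 libraries. Gclm shares 296 exon bases with Gm17494 on the opposite strand (657 counts in total) and 244 with the pseudogene Gm6061 on its own strand (328 counts in total). Txnrd1 overlaps Gm38560, Gm47073 and Eid3 without a shared exon base. With a mean of 2431 counts per library for Keap1 and 7128 for Gclm, these neighbours hold few reads beside the members.

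Levels between genes were compared per kb of exon sequence. Gclc, the catalytic subunit of glutamate-cysteine ligase, had the highest mean over the 16 libraries, 61.8 CPM per kb. Next came Gclm, the modifier subunit of the same enzyme, at 23.4 CPM per kb, then Srxn1 at 20.6, Nfe2l2 at 18.8, Txnrd1 at 18.7, Hmox1 at 12.1 and Keap1 at 10.8 CPM per kb. Nqo1, a quinone reductase, was lowest at 4.46 CPM per kb. When the longest annotated transcript replaced the union of exons, Gclc stayed highest and Nqo1 lowest, whereas Txnrd1 moved from rank 5 to rank 2. Between single libraries Txnrd1 varied least, by 1.29 times from the lowest to the highest CPM, and Hmox1 most, by 3.42 times, followed by Srxn1 with 3.37 times.

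Promoter sequences are shown because antioxidant response elements contain the core TGACNNNGC, where N is any base. RefSeq promoters (GRCm38.p6) were found for 6 members with 8 starts, not for Gclc or Hmox1, and both strands of the 250 bases before each start were searched. Matches were found for Nfe2l2, Gclm and a downstream start of Txnrd1. That is 3 of the 8 starts, where 10.2% of all 32851 promoters of that length held a match. It is also 3 of the 6 members, where 11.5% of the 27025 genes with a promoter searched had one. The 4 windows below are printed 5' to 3' on the strand of the gene and end at the base before the start. They cover chr2:75704664-75704913 for Nfe2l2 (minus strand), chr3:122245307-122245556 for Gclm, chr10:82858956-82859205 for Txnrd1 and chr2:152105274-152105523 for Srxn1 (plus strand), and capitals mark the match.
Nfe2l2: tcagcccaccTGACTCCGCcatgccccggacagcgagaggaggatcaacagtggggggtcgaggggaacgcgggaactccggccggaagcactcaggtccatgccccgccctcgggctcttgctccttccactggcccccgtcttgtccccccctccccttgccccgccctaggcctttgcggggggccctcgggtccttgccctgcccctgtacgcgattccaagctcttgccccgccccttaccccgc
Gclm: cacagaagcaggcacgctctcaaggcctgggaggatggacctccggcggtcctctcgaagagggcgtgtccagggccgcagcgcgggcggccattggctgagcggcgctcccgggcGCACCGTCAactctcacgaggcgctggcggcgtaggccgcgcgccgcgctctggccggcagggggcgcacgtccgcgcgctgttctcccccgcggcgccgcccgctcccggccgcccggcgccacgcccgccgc
Txnrd1: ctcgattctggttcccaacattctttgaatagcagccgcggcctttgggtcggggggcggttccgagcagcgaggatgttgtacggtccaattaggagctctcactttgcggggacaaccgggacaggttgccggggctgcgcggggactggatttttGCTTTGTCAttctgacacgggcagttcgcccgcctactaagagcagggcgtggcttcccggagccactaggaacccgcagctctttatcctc
Srxn1: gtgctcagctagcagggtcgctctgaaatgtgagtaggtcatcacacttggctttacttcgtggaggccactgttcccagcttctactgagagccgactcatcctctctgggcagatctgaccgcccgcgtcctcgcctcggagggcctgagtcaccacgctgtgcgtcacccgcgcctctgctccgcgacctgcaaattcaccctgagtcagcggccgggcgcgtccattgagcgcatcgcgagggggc

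In Nfe2l2 the match TGACTCCGC is on the strand of the gene and begins 240 bases before the start, at chr2:75704895-75704903. The matches of Gclm (TGACGGTGC, chr3:122245423-122245431) and Txnrd1 (TGACAAAGC, chr10:82859114-82859122) read on the opposite strand, so the capitals above show their reverse complement. Srxn1 is shown as the member with the largest fold change. It held no match before its start and a single match after it (TGACCTAGC on the opposite strand, chr2:152105552-152105560), in a window with 50 further bases where 12.4% of all promoters hold a match. The motif is short, so a match describes the letters only, and enhancers outside these windows were not searched. The search fixed C after TGA, so stretches with another base there, such as TGAGTCAGC in the Srxn1 window, were not counted.

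Fasting in CD mice was accompanied by higher Srxn1 and Keap1 and by lower Nfe2l2 transcript levels, and fasting in HFD mice by higher Srxn1 and Keap1. Of the 8 members 3 (37.5%) passed the test in CD (edgeR quasi-likelihood test, adjusted p under 0.05 over 15075 genes), where 25.2% of all genes tested passed. The 2 that rose stand against a background of 13.7% of genes called higher, and the 1 that fell against 11.5% called lower. In HFD mice 2 members (25.0%) passed, both higher, against 8.86% of all genes, 4.78% called higher and 4.07% called lower. For the HFD itself 0 of 8 members passed in fed mice (background 7.5%; 2 with an unadjusted p under 0.05, 1 called by DESeq2, 0 by limma-voom) and 0 in fasted mice (background 7.7%; 3 unadjusted, 3 by DESeq2, 0 by limma-voom). The diet by fasting interaction, which subtracts the fasting change of CD mice from that of HFD mice, called 0 members (background 2.59%; 2 unadjusted, 0 by DESeq2 and by limma-voom). Of all 15075 genes, 3449 had an unadjusted edgeR p under 0.05 for the HFD in fed mice, and DESeq2 called 1768. In fasted mice these numbers were 3905 and 1967, and for the interaction 3045 and 1066. The unadjusted and DESeq2 counts of members stand beside these numbers, not beside the percentages above. The median log2 fold change of the members was close to that of all genes for fasting in CD (-0.04 against -0.01). It was 0.09 against 0.01 for fasting in HFD. For the HFD this median was -0.134 against 0.007 in fed mice and -0.006 against 0.013 in fasted mice. For the interaction it was 0.073 against -0.002. The 2 fasting contrasts used separate livers, whereas each of them shares libraries with the diet contrasts.

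**Figure D1:**
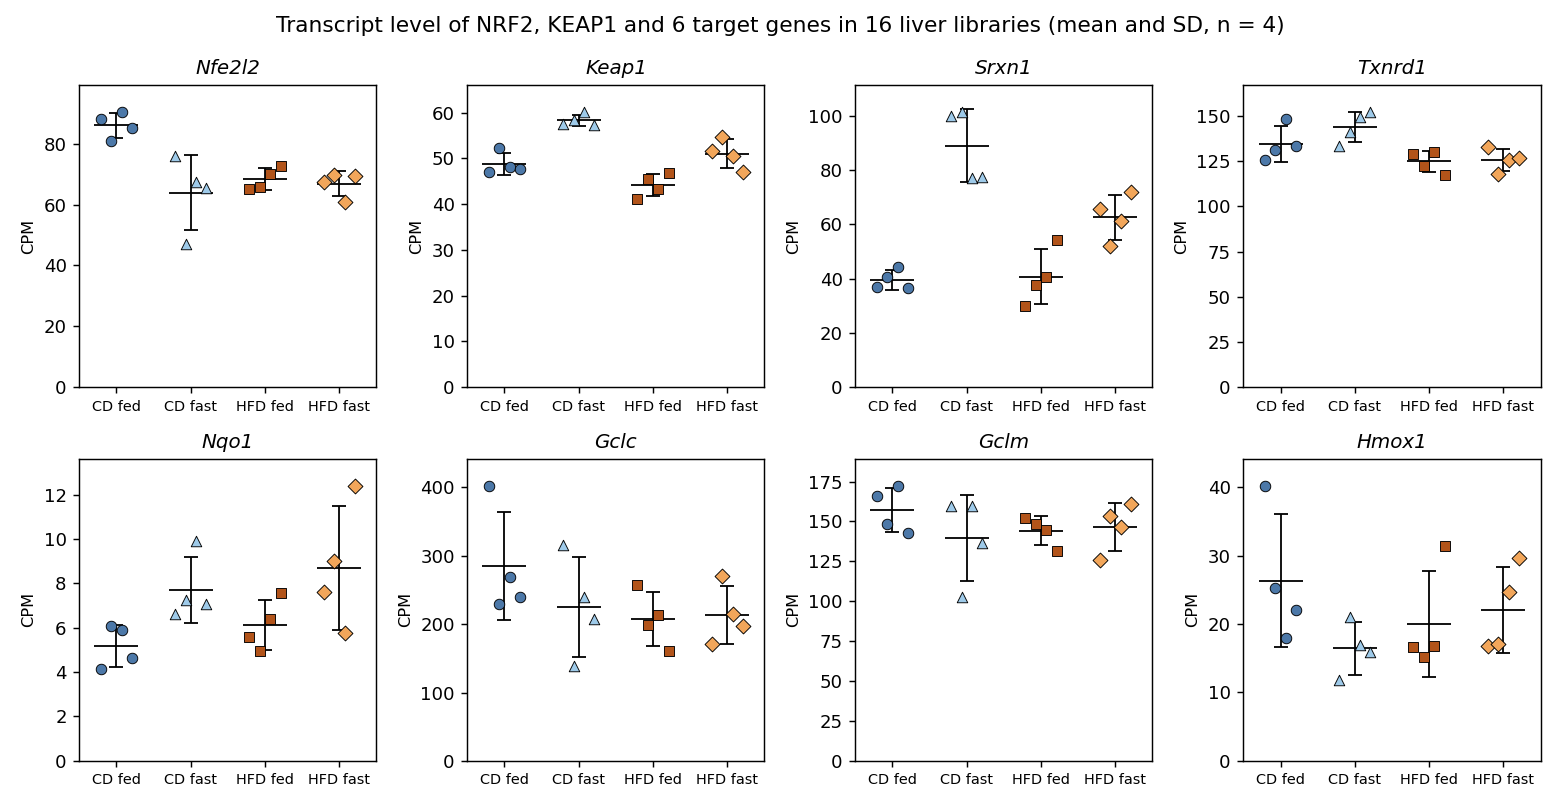
Transcript level (CPM, TMM-scaled, linear axes from 0) of the 8 members in each of the 16 libraries, with 1 point per library and the mean and SD of each group of 4. Srxn1 lies between 77.2 and 101 CPM in CD fast livers and between 36.6 and 44.4 CPM in CD fed livers, and the 4 Nfe2l2 values of CD fed livers lie above the other 12.

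Nfe2l2, the NRF2 gene, was highest in CD fed livers. Its level was 88.1, 80.7, 90.3 and 85.2 CPM in the 4 CD fed libraries and 76.0, 47.0, 67.5 and 65.3 CPM in the CD fast libraries. HFD fed libraries had 65, 65.7, 70.2 and 72.8 CPM and HFD fast libraries 67.6, 69.7, 61.0 and 69.3 CPM. All 4 CD fed values were above the other 12, and the remaining 3 groups overlapped each other. In CD mice fasting lowered the mean from 86.1 ± 4.12 to 64.0 ± 12.2 CPM (SD, n = 4), a log2 fold change of -0.43 (SE 0.11, 95% interval -0.66 to -0.20, edgeR adjusted p = 0.00993). This fall was called whichever of the 16 libraries was omitted (highest adjusted p 0.0277, without CD fed replicate 3). In HFD mice the change with fasting was -0.03 (95% interval -0.26 to 0.20, adjusted p = 0.881). The difference between these changes was 0.40 (95% interval 0.07 to 0.72), with an unadjusted p of 0.0204 and an adjusted p of 0.164, so that it did not pass the test.

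In fed mice the HFD group was below the CD group for Nfe2l2 in all 4 against all 4 libraries, with a log2 fold change of -0.33 (SE 0.11, 95% interval -0.56 to -0.10). It missed the threshold (edgeR adjusted p = 0.0744) and passed it with DESeq2 (0.0430), in a fit of only the groups compared (0.0211), without CD fast replicate 1 (0.0486) and without CD fast replicate 2 (0.010). CD fast replicate 2 is also the library with the lowest Nfe2l2 of all. In fasted mice the diet difference was 0.06 (95% interval -0.17 to 0.30, adjusted p = 0.751).

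Keap1, which encodes the inhibitor of NRF2, had its highest levels in CD fast livers, with 57.5, 58.3, 60.1 and 57.3 CPM. CD fed libraries had 47.0, 52.3, 48.2 and 47.6 CPM, HFD fed libraries 41.1, 45.4, 43.4 and 46.7 CPM, and HFD fast libraries 51.7, 54.7, 50.6 and 47.1 CPM. CD fast did not overlap any other group, HFD fed lay below both CD groups and HFD fast, and CD fed overlapped HFD fast alone. Fasting raised Keap1 in CD mice from 48.8 ± 2.40 to 58.3 ± 1.25 CPM (SD, n = 4), a log2 fold change of 0.26 (SE 0.06, 95% interval 0.13 to 0.39, edgeR adjusted p = 0.00704). In HFD mice it rose from 44.2 ± 2.46 to 51.0 ± 3.15 CPM, by 0.21 (SE 0.06, 95% interval 0.08 to 0.34, adjusted p = 0.0465). The 2 changes differed by -0.05 (95% interval -0.23 to 0.14, adjusted p = 0.786). The HFD call remained when CD fed replicate 2, CD fast replicate 2, HFD fed replicate 4 or HFD fast replicate 4 was left out, and was lost without each of the other 12 libraries, with adjusted p from 0.0534 without CD fast replicate 1 to 0.149 without HFD fed replicate 1. With both HFD libraries numbered 4 left out it was 0.27 (adjusted p = 0.0288). It was also lost with DESeq2 size factors (0.0544), with no count filter (0.140) and in a fit of only the groups compared (0.0943).

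Keap1 was lower in HFD than in CD livers in both feeding states without passing the test. The log2 fold change was -0.14 in fed mice (95% interval -0.27 to -0.01, edgeR adjusted p = 0.172) and -0.19 in fasted mice (95% interval -0.32 to -0.06, adjusted p = 0.0654). The libraries of the 2 diets did not overlap in either state. The fasted comparison was called without HFD fast replicate 2 (adjusted p = 0.0422) and by DESeq2 (0.0195).

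Srxn1 encodes sulfiredoxin, which restores overoxidised peroxiredoxins. It showed the largest change of the 8 members. CD fed libraries had 36.8, 40.7, 44.4 and 36.6 CPM and CD fast libraries 99.97, 101, 77.2 and 77.6 CPM. HFD fed libraries had 30.1, 37.7, 40.8 and 54.3 CPM and HFD fast libraries 65.5, 52.1, 61.2 and 71.8 CPM. The CD fast values were above the other 12, and HFD fed replicate 4, at 54.3 CPM, was the only fed library above the lowest HFD fast library. Srxn1 rose with fasting from 39.6 ± 3.70 to 89.0 ± 13.4 CPM in CD mice (SD, n = 4), 2.25-fold (log2 fold change 1.17, SE 0.16, 95% interval 0.84 to 1.5, edgeR adjusted p = 0.000112). In HFD mice it rose 1.54-fold, from 40.7 ± 10.1 to 62.7 ± 8.28 CPM (log2 fold change 0.62, SE 0.16, 95% interval 0.29 to 0.95, adjusted p = 0.0227). The CD call held without each single library (adjusted p at most 0.000643). The HFD call was lost without HFD fed replicate 1 (0.0728), 2 (0.0606) or 3 (0.0530) and without HFD fast replicate 1 (0.0576) or 4 (0.0572), and held with both HFD libraries numbered 4 left out (0.72, adjusted p = 0.0112). It was lost in a fit of only the groups compared (0.0613), and the exact permutation test, two-sided, gave p = 0.0571.

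For Srxn1 the interaction was -0.54 (SE 0.22, 95% interval -1.01 to -0.08), with an unadjusted p of 0.0244 and an edgeR adjusted p of 0.178. It therefore did not pass the test over all genes. Fed livers of the 2 diets had similar mean levels, with a log2 fold change of 0.04 (95% interval -0.29 to 0.37). In fasted livers the HFD group was below the CD group in all 4 against all 4 libraries, by -0.51 (95% interval -0.83 to -0.18, adjusted p = 0.0570). This difference passed with DESeq2 (0.0208), without HFD fed replicate 1 (0.0380), without HFD fed replicate 4 (0.0254) and with both HFD libraries numbered 4 left out (0.0294).

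Txnrd1, the cytosolic thioredoxin reductase that passes electrons from NADPH to thioredoxin, varied little. Its level was 126, 131, 149 and 133 CPM in CD fed, 133, 141, 149 and 152 CPM in CD fast, 129, 123, 130.2 and 118 CPM in HFD fed and 133, 118, 126 and 127 CPM in HFD fast libraries. All CD fast libraries were above all libraries of both HFD groups, and the other pairs of groups overlapped. Fasting gave a log2 fold change of 0.10 in CD mice (95% interval -0.05 to 0.24) and 0.01 in HFD mice (95% interval -0.14 to 0.16). The diet difference in fasted mice was -0.20 (SE 0.07, 95% interval -0.34 to -0.05), with an unadjusted p of 0.0130 and an edgeR adjusted p of 0.0933 (0.0294 with DESeq2). In fed mice it was -0.11 (95% interval -0.26 to 0.04).

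**Figure D2:**
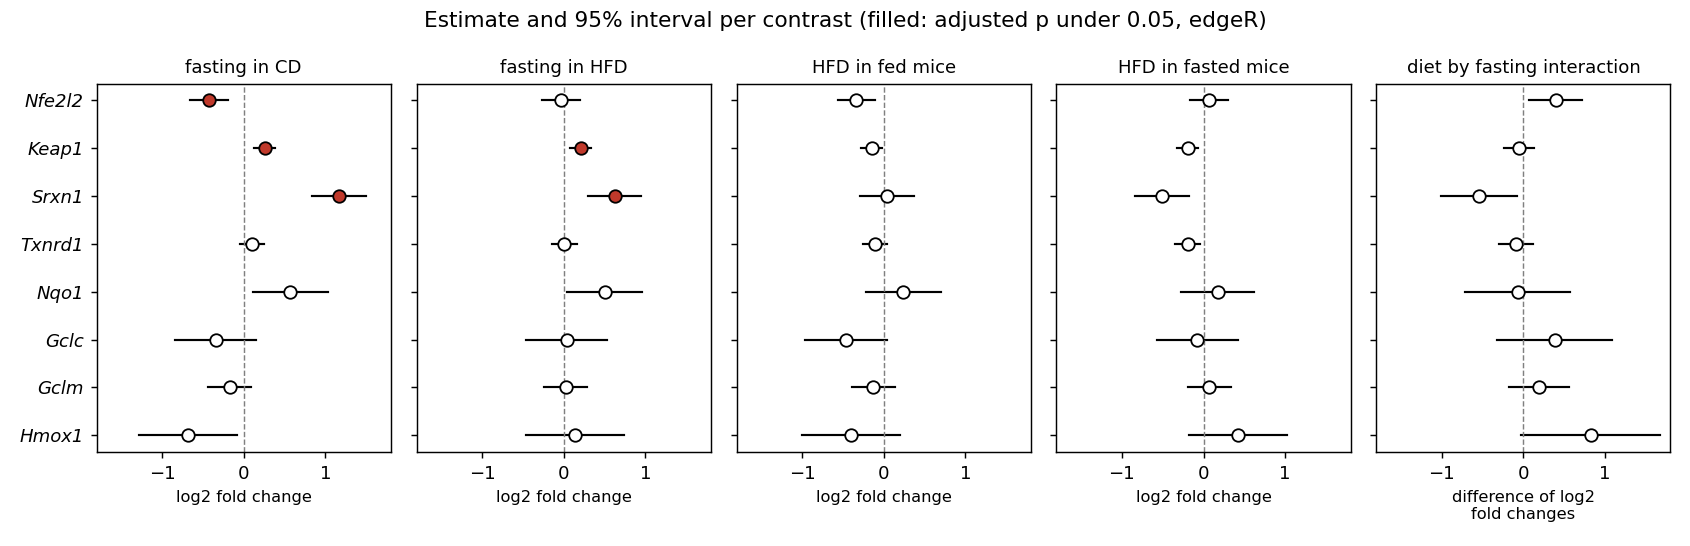
Estimates (points) and 95% intervals (lines) on the log2 scale for the 8 members in the 4 pairwise contrasts and the diet by fasting interaction, with filled points for an adjusted p under 0.05 in edgeR. Filled points are Nfe2l2, Keap1 and Srxn1 for fasting in CD, and Keap1 and Srxn1 for fasting in HFD.

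Nqo1 encodes a quinone reductase that is often used as a readout of NRF2 activity. It was the least abundant member. CD fed libraries had 4.14, 6.06, 5.92 and 4.63 CPM and CD fast libraries 6.60, 7.27, 9.90 and 7.05 CPM, without overlap. HFD fed libraries had 5.59, 4.97, 6.4 and 7.59 CPM and HFD fast libraries 7.59, 9.02, 5.74 and 12.4 CPM, which overlapped. The fasted means were 7.71 ± 1.49 against 5.19 ± 0.952 CPM in CD mice and 8.68 ± 2.81 against 6.14 ± 1.13 CPM in HFD mice (SD, n = 4). The log2 fold change with fasting was 0.57 in CD (SE 0.21, 95% interval 0.12 to 1.03, edgeR adjusted p = 0.0616) and 0.50 in HFD (SE 0.21, 95% interval 0.05 to 0.95, adjusted p = 0.154), so neither passed. Without single libraries the HFD value ranged from 0.28 to 0.65 (edgeR adjusted p up to 0.424, without HFD fast replicate 4). The CD comparison passed with DESeq2 (0.037), in a fit of only the groups compared (0.0408), without HFD fast replicate 3 (0.0403) or 4 (0.0321) and without both HFD libraries numbered 4 (0.0261). Diet differences were 0.24 in fed mice (95% interval -0.21 to 0.70) and 0.17 in fasted mice (95% interval -0.28 to 0.62).

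Gclc and Gclm together form glutamate-cysteine ligase, which makes the rate-limiting step of glutathione synthesis. Gclc had 402, 229.9, 269 and 240.2 CPM in CD fed, 315, 138, 239 and 207 CPM in CD fast, 257, 199, 214 and 160.3 CPM in HFD fed and 171, 270.1, 215 and 198 CPM in HFD fast libraries. The groups overlapped in all comparisons, and the highest value (CD fed replicate 1) and the lowest (CD fast replicate 2) both came from CD livers. The log2 fold change of Gclc with fasting was -0.34 in CD (SE 0.23, 95% interval -0.84 to 0.15, edgeR adjusted p = 0.303) and 0.04 in HFD (95% interval -0.46 to 0.54, adjusted p = 0.934). Gclc values were widely spread within groups, with an SD of 79.5 CPM in CD fed and 73.5 CPM in CD fast livers, and these intervals do not exclude changes in either direction. Its diet differences were -0.46 in fed mice (95% interval -0.96 to 0.04, adjusted p = 0.259) and -0.08 in fasted mice (95% interval -0.57 to 0.42). Without single libraries Gclc ranged from -0.55 to -0.13 for fasting in CD and from -0.58 to -0.25 for the HFD in fed mice.

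Gclm was steadier, with 166, 148, 172 and 143 CPM in CD fed, 159, 103, 159.9 and 136 CPM in CD fast, 152, 149, 145 and 131 CPM in HFD fed and 126, 153, 146 and 161 CPM in HFD fast libraries. The groups overlapped, and CD fast replicate 2 was the lowest library, as for Nfe2l2 and Gclc. The log2 fold change with fasting was -0.17 in CD (95% interval -0.43 to 0.09, edgeR adjusted p = 0.329) and 0.02 in HFD (95% interval -0.24 to 0.28). The diet gave -0.12 in fed mice (95% interval -0.39 to 0.14) and 0.07 in fasted mice (95% interval -0.19 to 0.33).

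Hmox1 encodes heme oxygenase 1, which breaks down haem and is abundant in macrophages that clear red blood cells. Its level was 40.1, 25.3, 17.9 and 22.0 CPM in CD fed, 11.7, 21.1, 17.0 and 15.9 CPM in CD fast, 16.6, 15.1, 16.8 and 31.5 CPM in HFD fed and 16.7, 17.1, 24.7 and 29.6 CPM in HFD fast libraries. All groups overlapped, and CD fed replicate 1 and HFD fed replicate 4 were high within their groups. With fasting the log2 fold change was -0.68 in CD (SE 0.28, 95% interval -1.28 to -0.08, edgeR adjusted p = 0.0895) and 0.14 in HFD (95% interval -0.46 to 0.74, adjusted p = 0.791). The CD comparison passed when both HFD libraries numbered 4 were left out (-0.68, adjusted p = 0.0379) and was -0.40 (adjusted p = 0.316) without CD fed replicate 1. The diet difference was -0.40 in fed mice (95% interval -0.99 to 0.20, adjusted p = 0.437) and 0.43 in fasted mice (95% interval -0.17 to 1.03, adjusted p = 0.361). Without single libraries it ranged from -0.70 to -0.12 in fed mice and from 0.25 to 0.57 in fasted mice. The interaction was 0.82 (95% interval -0.02 to 1.67, adjusted p = 0.261).

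Markers of Kupffer cells and other macrophages were read beside Hmox1. The sum of 12 such markers was 846, 539, 432 and 578 CPM in CD fed, 306, 475, 372 and 389.7 CPM in CD fast, 470.0, 473, 477 and 722 CPM in HFD fed and 631, 386, 622 and 563 CPM in HFD fast libraries. The highest sums belonged to CD fed replicate 1 and HFD fed replicate 4, the 2 libraries with the most Hmox1. HFD fast replicate 1 had the next highest sum, 631 CPM, but only 16.7 CPM of Hmox1. Of the 12 markers 5 (Clec4f, Adgre1, Csf1r, C1qa and C1qb) fell with fasting in CD mice, 0 rose, and none was at 0 in any library. Among 6 endothelial markers 3 fell as well, where 11.5% of all genes were called lower. The part of these cells in the Hmox1 values was not tested.

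**Figure D3:**
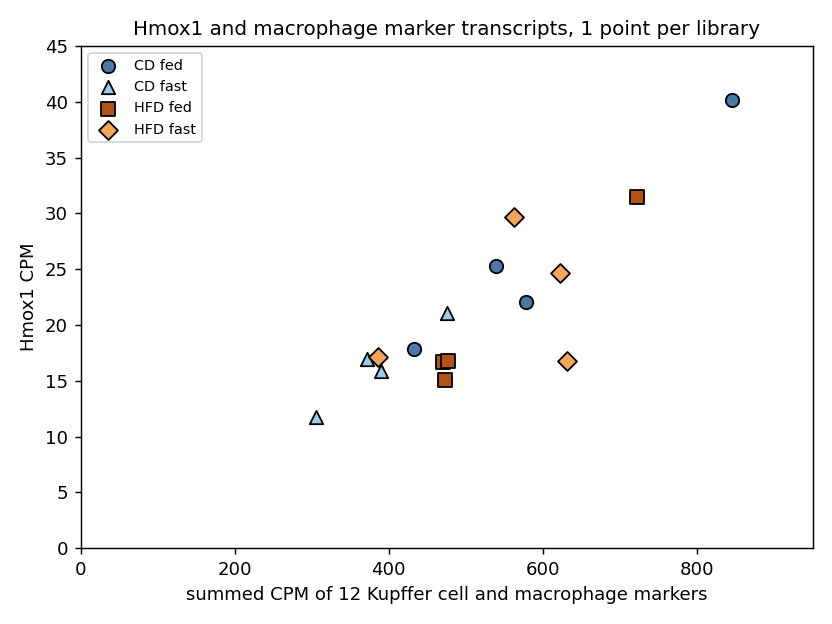
Hmox1 (CPM, vertical axis) against the summed CPM of 12 Kupffer cell and macrophage markers (horizontal axis), with 1 point per library and symbols for the 4 groups. The upper right holds CD fed replicate 1 (846 and 40.1 CPM) and HFD fed replicate 4 (722 and 31.5 CPM). The lowest point is CD fast replicate 1 (306 and 11.7 CPM), and HFD fast replicate 1 lies at 631 and 16.7 CPM.

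Genes that belong to the same pathway but were not among the 8 members were read from 8 lists. These lists were chosen with earlier results of these data known, so the shares called in them are a description and not an independent test. The list of NRF2 partners and controls holds 12 genes, such as Cul3, the small MAF genes, the repressor Bach1 and the autophagy receptor gene Sqstm1. Of these 3 rose with fasting in CD mice and 0 fell (25.0% called, against 25.2% of all genes). They were Nfe2l1, a relative of NRF2 that controls proteasome genes (from 156 ± 6.69 to 217 ± 20.3 CPM, log2 fold change 0.48, SE 0.14, edgeR adjusted p = 0.0202), Sqstm1 (0.30, SE 0.11, adjusted p = 0.0484) and Btrc (0.29, adjusted p = 0.0250). None of the 3 was called without CD fed replicate 1, 1 was called without CD fed replicate 3 or CD fast replicate 2, and Nfe2l1 was also lost without CD fast replicate 4 (0.0589). The list had 2 calls without CD fed replicate 4 or CD fast replicate 1 or 4. It also had 2 without replicate 1, 2 or 3 of either HFD group. Without CD fast replicate 3 the calls were 2 higher and 1 lower. With no count filter or only the groups compared 1 was called, and total count scaling gave 1 higher and 1 lower. Sqstm1, whose protein competes with NRF2 for KEAP1, was also the only one of the 12 called for the diet (8.33%, against 7.7% of all genes in that contrast), with a log2 fold change of -0.43 in fasted mice (SE 0.11, adjusted p = 0.0249); this call was lost without CD fast replicate 1 (0.0640) or 2 (0.0580) and without HFD fast replicate 2 (0.0538) or 3 (0.0754), and 2 of the 12 were called without CD fast replicate 3. For the HFD in fasted mice 0 of the 12 were called with upper quartile scaling or in a fit of only the groups compared. Total count scaling gave 1 higher and 0 lower in that contrast. With the pair numbered 4 left out, 1 of the 12 was called in fed mice.

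Glutathione S-transferases, which conjugate glutathione to electrophiles and include well known NRF2 targets, were mostly lower after fasting in CD mice. Of 21 tested genes 13 (61.9%, against 25.2% of all genes) passed, 11 of them lower and 2 higher, and the list median was -0.67 against -0.01 for all genes. Among the mu class Gstm1 fell from 1316 ± 169 to 525 ± 93.7 CPM (SD, n = 4; log2 fold change -1.33, SE 0.16, edgeR adjusted p = 6.2e-05) and Gstm3 from 46.1 ± 7.08 to 4.16 ± 1.36 CPM (-3.46, SE 0.47, adjusted p = 0.000127). Gstt2 of the theta class rose from 49.2 ± 9.43 to 124 ± 23.0 CPM (1.33, SE 0.18, adjusted p = 0.00013) and Gsto1 by 0.38 (adjusted p = 0.00404). In HFD mice 5 of the 21 passed (23.8%, against 8.86%), 4 lower and 1 higher, with Gstp1 falling from 676 ± 189 to 235 ± 72.8 CPM (-1.52, SE 0.21, adjusted p = 0.00069) and Gstt2 rising by 0.69 (adjusted p = 0.0272). The Gstt2 call in HFD mice was lost without HFD fed replicate 1 (0.0911) or 3 (0.0621) and without HFD fast replicate 1 (0.0859) or 4 (0.0525), and with the pair numbered 4 left out (0.0669). Without both HFD libraries numbered 4 the counts were 11 lower and 2 higher in CD mice, and 5 lower and 0 higher in HFD mice. Omitting HFD fed replicate 1 left 3 calls in HFD mice. Gsta1 and Gsta2, Gstp1 and Gstp2, and the Gstm genes are close copies whose reads the counting could have divided differently, so values of single genes in these families are uncertain.

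For the diet, 4 of the 21 transferases were lower in HFD than in CD livers in the fed state (19.0%, against 4.22% of all genes called lower and 3.28% called higher). The largest of these differences was that of Gstm2 (58.5 ± 8.72 to 30.4 ± 5.09 CPM, log2 fold change -0.94, SE 0.19, edgeR adjusted p = 0.00899). In fasted mice Gstp1 (-0.91, SE 0.20, adjusted p = 0.0154) and Gsto1 (-0.35, SE 0.08, adjusted p = 0.0218) were lower in HFD livers, 2 of the 21 (9.52%, against 7.7% of all genes called), which is near the background. Without HFD fast replicate 4 there were 0 such calls among the 21, there was 1 when HFD fast replicate 3, CD fast replicate 1 or CD fast replicate 3 was omitted, without HFD fast replicate 1 there were 4, and with the pair numbered 4 left out there was 1.

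A list of 7 genes joined enzymes that make NADPH, the electron donor of thioredoxin reductase and of NQO1 (Me1, G6pdx, Pgd and Idh1), with Pgls, Tkt and Taldo1 of the pentose phosphate pathway, which do not make it themselves. Of the 7 genes 6 (85.7%, against 11.5% of all genes called lower) were called lower with fasting in CD mice and 0 higher, and the 4 that make NADPH were all among the 6. Pgls had 49.4 ± 7.62 against 39.3 ± 3.92 CPM and missed the threshold (edgeR adjusted p = 0.0520). Me1, the malic enzyme, fell from 428 ± 107 to 127 ± 20.4 CPM (log2 fold change -1.75, SE 0.21, edgeR adjusted p = 5.51e-05), and G6pdx, which opens the pentose phosphate pathway, from 9.95 ± 3.49 to 3.75 ± 0.471 CPM (-1.41, SE 0.21, adjusted p = 0.00029). In HFD mice Me1 was the single call (14.3%, against 8.86% of all genes; 3 genes without HFD fed replicate 4, 2 with the pair numbered 4 left out), falling from 260 ± 75.2 to 124 ± 16.9 CPM (-1.07, SE 0.21, adjusted p = 0.00718). In fed mice 4 of the 7 (57.1%, against 4.22% of all genes called lower) were lower in HFD than in CD livers, G6pdx by -1.19 (SE 0.21, adjusted p = 0.00371). The last count was 2 without both HFD libraries numbered 4, and also 2 without each of CD fed replicates 2, 3 and 4, CD fast replicates 3 and 4, and HFD fed replicates 1, 2 and 4. Without the pair numbered 4, 6 fell and 1 rose with fasting in CD mice. NADPH from these enzymes also serves fatty acid synthesis.

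The remaining genes of glutathione and thioredoxin metabolism moved in both directions. Of 10 tested genes for glutathione synthesis and use 5 passed with fasting in CD mice, where 25.2% of all genes passed, 2 higher and 3 lower, while Slc7a11, Ggt1 and Gpx2 had too few counts to be tested. The 5 calls became 2 without CD fed replicate 3 and 3 without CD fast replicate 1, 2 or 4, and were 6 with the pair numbered 4 left out. Glrx, a glutaredoxin, rose from 30.1 ± 4.2 to 63.1 ± 8.15 CPM (log2 fold change 1.07, SE 0.14, edgeR adjusted p = 8.06e-05), and Gpx4, the glutathione peroxidase that reduces lipid peroxides, rose by 0.34 (adjusted p = 0.0101). Chac1, which degrades glutathione, fell by 1.45 on the log2 scale (adjusted p = 0.0409) from a low level of 2.96 ± 1.11 CPM, a call lost without 6 of the 16 libraries (up to 0.125 without CD fed replicate 2). In HFD mice Gpx4 rose by 0.32 (adjusted p = 0.0315) and Glo1 fell by 0.76 (adjusted p = 0.0387), and these calls were lost without 6 and 7 of the 16 libraries (up to 0.107 and 0.115, both without HFD fed replicate 1). Both were also lost in a fit of only the groups compared, and the rise of Gpx4 with no count filter. Gss and Gsr, for glutathione synthetase and reductase, did not pass for fasting in CD (0.14 and 0.15, adjusted p = 0.403 and 0.260).

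Of the 14 genes of the thioredoxin and peroxiredoxin system 5 passed with fasting in CD mice (35.7%, against 25.2% of all genes), 1 higher and 4 lower. Txn2, the mitochondrial thioredoxin, rose by 0.31 (SE 0.09, edgeR adjusted p = 0.0257; 0.0825 without CD fed replicate 1 and 0.0882 without CD fast replicate 2), and Sesn3, a sestrin, showed the largest fall (-0.76, SE 0.14, adjusted p = 0.00113). In HFD mice 3 were lower and 0 higher (21.4%, against 8.86% of all genes, and 2 genes with the pair numbered 4 left out), and Prdx4 of the endoplasmic reticulum fell from 68.4 ± 2.60 to 45.9 ± 0.572 CPM (-0.58, SE 0.10, adjusted p = 0.00265). The count in HFD mice was 1 when replicate 1 or 2 of the fed group was omitted, or replicate 1 or 4 of the fasted group, and that in CD mice 3 without CD fast replicate 2. Txn2 was lower in HFD than in CD livers of fasted mice (-0.36, adjusted p = 0.0329), a call lost without CD fast replicate 2 (0.0877) and without HFD fast replicate 3 (0.0996) or 4 (0.0904), and with the pair numbered 4 left out (0.0936). Superoxide dismutases and catalase gave 1 call in 4 genes (25.0%, against 25.2% of all genes), a fall of the extracellular enzyme Sod3 with fasting in CD mice (-0.62, SE 0.20, adjusted p = 0.0297), lost without CD fed replicate 1 (0.102) or 2 (0.0647) and without CD fast replicate 1 (0.0788) or 2 (0.0839).

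Among 24 further genes reported as NRF2 targets 9 passed with fasting in CD mice (37.5%, against 25.2% of all genes), 3 higher and 6 lower, and 11 with the pair numbered 4 left out. Aldh3a2, a fatty aldehyde dehydrogenase, rose from 448 ± 60.6 to 1368 ± 215 CPM (SD, n = 4; log2 fold change 1.61, SE 0.16, edgeR adjusted p = 1.29e-05), and Ces1g, a carboxylesterase, fell from 208 ± 42.7 to 69.6 ± 33.2 CPM (-1.58, SE 0.39, adjusted p = 0.00837). In HFD mice 3 were called (12.5%, against 8.86%; 2 without that pair), all higher, led by Aldh3a2 (0.80, SE 0.16, adjusted p = 0.00761). Aldh3a2 was also higher in HFD than in CD livers of fed mice (1.0, SE 0.16, adjusted p = 0.00187), where Ugt2b35 was lower (-0.58, SE 0.16, adjusted p = 0.0441; lost without 12 of the 16 libraries, with up to 0.124 without CD fed replicate 3, and 0.0992 without that pair). The 4 calls of this list in fed mice, 1 higher and 3 lower (16.7%, against 7.5% of all genes), became 1 when any of the replicates 1 to 3 of either fed group was omitted, and 2 without CD fast replicate 4 or HFD fast replicate 3. In fasted mice 4 of the 24 were called (16.7%, against 7.7%), 1 higher and 3 lower. HFD livers had more Aox1 (0.59, SE 0.13, adjusted p = 0.0150) and less Adh7 (-1.09, SE 0.18, adjusted p = 0.00492). Aldh3a2 is also a known target of the fasting regulator PPARA.

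Haem genes other than Hmox1 were read because its product acts in this pathway. Of 11 genes 5 passed with fasting in CD mice, 4 higher and 1 lower (45.5%, against 25.2% of all genes), 3 passed without CD fed replicate 4 and 6 with the pair numbered 4 left out. Alas1, the enzyme that starts haem synthesis, rose by 1.91 (SE 0.54, edgeR adjusted p = 0.0186) with wide spread, from 402 ± 261 to 1508 ± 808 CPM (adjusted p = 0.0538 without CD fed replicate 4), and Blvra, biliverdin reductase A, fell by 0.29 (adjusted p = 0.0383; lost without 5 libraries, with up to 0.103 without CD fast replicate 1). In HFD mice Hp, haptoglobin, rose by 0.76 (SE 0.17, adjusted p = 0.0145), and Hmox2, the constitutive heme oxygenase, fell from 45.5 ± 4.16 to 35.1 ± 2.53 CPM (-0.37, SE 0.09, adjusted p = 0.0228; 0.0713 without HFD fed replicate 1, 0.0685 without replicate 2 of that group, 0.0553 or 0.0602 when HFD fast replicate 3 or 4 was omitted, and 0.0578 with the pair numbered 4 left out).

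**Figure D4:**
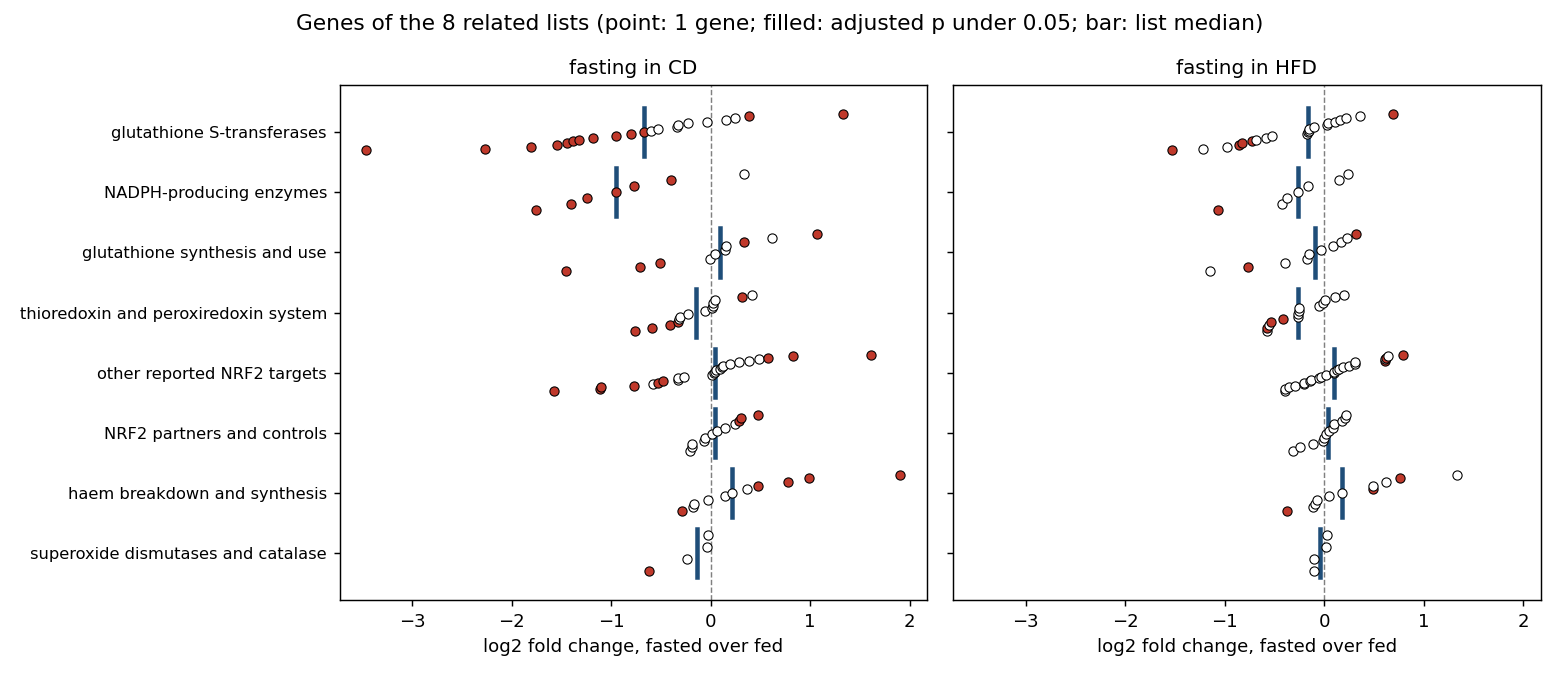
Log2 fold change of fasting (horizontal axis) for every tested gene of the 8 related lists, in CD mice (left) and HFD mice (right), with 1 point per gene, filled where the adjusted p is under 0.05, and a bar at the list median. Glutathione S-transferases and the list plotted as NADPH-producing enzymes (with Pgls, Tkt and Taldo1) lie mostly to the left in CD mice, with medians of -0.67 and -0.95, against -0.16 and -0.26 in HFD mice.

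Genes among the most similar to each member over the 16 libraries were found by Pearson's r of log2 CPM, as a description without a test. They were Psmd8, a proteasome subunit (r = 0.951), and Rabl3 (0.950) for Srxn1, Mea1 (0.931) for Keap1 and Plekha2 (0.941) for Hmox1. For Nfe2l2 they were S100a7a (0.901) and Cyp2f2 (0.895), for Gclc Asb13 (0.916) and Ssb (0.897), for Gclm Akirin2 (0.859), for Nqo1 Ipo5 (0.852) and Med22 (0.845), and for Txnrd1 the noncoding genes 9030616G12Rik (0.901) and Gm15690 (0.828). S100a7a and Gm15690 had means of only 11.9 and 8.44 counts per library. The 8 members were themselves left out of this search. All 16 points share the same 4 groups, so a high r can follow from group means alone.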

How the data were processed

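Poly(A) RNA-seq counts per gene were deposited by the authors, whose processing notes name CASAVA 1.8.4, TopHat2 2.0.11 and featureCounts. The methods of the study give another CASAVA version and alignment to GRCm38 with a first-strand setting. The annotation release and the strand setting of the counting are not given in the sources used here. All 16 columns matched a sample label. The table was used as deposited, with total counts per library as given above.

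Here, counts were scaled by TMM and fitted with edgeR 4.0.16 (R 4.3.3, limma 3.58.1), with 1 coefficient for each of the 4 groups over 16 libraries and 12 residual degrees of freedom. Genes were filtered by filterByExpr, which left 15075, and p-values were adjusted over these by Benjamini-Hochberg with a threshold of 0.05. Log2 CPM values used a prior count of 2, and fold changes came from the edgeR fit, where no prior count was set. The fits were tested on simulated counts, and the outcome is not reported here. Alternatives were DESeq2 1.42.0, limma-voom, other scalings and count filters, fits of only the groups compared, a replicate block, a threshold of 0.01, leaving out each library, and an exact permutation test (two-sided, smallest p 0.0286). Leaving out both HFD libraries numbered 4 was added after seeing the data. Positions are from GENCODE for GRCm38 and promoters from RefSeq (GRCm38.p6). The named list genes are the called gene with the largest rise and that with the largest fall in each list and contrast, with a mean of at least 100 counts; Btrc, Gstm1, Gss, Gsr, Pgls and Pgd, Sqstm1 for fasting, G6pdx in CD, Gsto1 in CD and in fasted mice and Gpx4 in CD were added after their values were seen. The members and lists were chosen with earlier results of these data known. Nothing in the labels states that libraries of 1 group came from separate cages or days, so p-values measure the spread between these libraries. For each member the 2 genes with the highest Pearson's r of log2 CPM were sought, and some of them are not reported here.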

Additional observations from a re-analysis of the deposited data

Results flagged for a closer look

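Hmox1 in HFD fed replicate 4 was 31.5 CPM, and its distance to the nearest of the other 3 HFD fed libraries was 0.897 of the range of that group, above Dixon's 95% critical value for 4 samples. It was the only one of 32 groups of member values past that limit, where chance gives about 1 in 20.

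For 7 genes of the related lists the fasting change of HFD mice less that of CD mice passed the edgeR test of the difference itself, where 2.59% of all genes passed; the calls were 2 of 7 in the NADPH and pentose phosphate list, 2 of 21 transferases, 2 of 24 further targets and 1 of 10 glutathione genes, and 0 in the other 4 lists. It was 1.56 for G6pdx (adjusted p = 0.0165), 0.98 for Pgd (0.00329), 1.40 for Gstm2 (0.0173) and 2.19 for Ces1g (0.0434), all of which fell with fasting in CD mice. It was -0.90 for Glrx (0.0248), -0.49 for Gsto1 (0.0407) and -0.92 for Cbr1 (0.0220), all of which rose with fasting in CD mice. G6pdx, Pgd, Gstm2 and Cbr1 were called whichever single library was left out. Glrx was lost without HFD fed replicate 3 (0.0563), Gsto1 without 12 of the 16 libraries (up to 0.0895 without HFD fast replicate 3), and Ces1g without 13 (up to 0.0917 without CD fed replicate 2). With both HFD libraries numbered 4 left out, Cbr1 (0.0537), Gsto1 (0.101) and Ces1g (0.0885) were not called.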

How the results depend on the processing

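The number of members called for fasting in CD was 3, and it was 4 with DESeq2, with only the groups compared and by exact permutation (Nqo1 added), 5 with both HFD libraries numbered 4 left out and 3 to 4 without single libraries. For fasting in HFD it was 2, against 1 with DESeq2 size factors, 1 with no count filter, 0 in a fit of only the groups compared, 0 at an adjusted p under 0.01, 1 by exact permutation and 0 to 2 without single libraries. For the HFD in fed mice it was 0, against 1 with DESeq2, 1 with only the groups compared, 2 by exact permutation and 0 to 1 without single libraries. In fasted mice it was 0, against 3 with DESeq2, 1 with both HFD libraries numbered 4 left out, 3 by exact permutation and 0 to 1 without single libraries. The interaction called 0 members without any single library. Counts by exact permutation rest on an unadjusted p under 0.05, whereas the other counts rest on adjusted p-values. That test was run on members and list genes only, so its counts have no share of all genes beside them. DESeq2 called 4265 of 15075 genes for fasting in CD and 2009 for fasting in HFD. It called 1768 and 1967 for the HFD in fed and fasted mice. Leaving out both HFD libraries numbered 4 gave 4128 of 15113 genes for fasting in CD and 645 for the HFD in fasted mice. With only the groups compared 3119 of 14652 were called for fasting in CD. The labels state no pairing by replicate number, and in every pair of groups at least 1 same-numbered pair had an r of deviations under 0.1 (range -0.243 to 0.662, the highest being HFD fed 4 with HFD fast 4; the next highest was 0.206), so the numbers were not treated as pairs. With the replicate block 3, 2, 0, 0 and 0 members were called, as without it; over all genes the block gave 3948 calls for fasting in CD, 1440 for fasting in HFD, 1207 and 1290 for the HFD in fed and fasted mice, and 359 for the interaction.

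Signs turned only for differences that were not called. Total count scaling, under which the median of all genes for the HFD in fasted mice was 0.17 against 0.013 with TMM, gave 0.015 for Nfe2l2 with fasting in HFD, 0.072 for Gclc in fasted mice, and interactions of 0.035 for Keap1, 0.026 for Nqo1 and 0.0051 for Txnrd1. Without both HFD libraries numbered 4, Keap1 had an interaction of 0.017, Nqo1 -0.050 in fasted mice, Srxn1 -0.13 in fed mice, and Gclc -0.029, Gclm -0.066 and Txnrd1 -0.020 with fasting in HFD. Without single libraries, fasting in HFD ranged from -0.066 to 0.0088 for Nfe2l2, -0.11 to 0.16 for Gclc, -0.024 to 0.089 for Gclm, -0.035 to 0.45 for Hmox1 and -0.017 to 0.030 for Txnrd1. The HFD in fasted mice ranged from -0.058 to 0.16 for Nfe2l2, -0.050 to 0.32 for Nqo1, -0.25 to 0.13 for Gclc and -0.052 to 0.14 for Gclm, the HFD in fed mice from -0.13 to 0.16 for Srxn1, and the interaction from -0.29 to 0.081 for Nqo1. The cause was not tested. The share of all calls that were higher was 88.1% with total counts against 39.6% with TMM for the HFD in fasted mice, 68.8% against 43.8% in fed mice, 67.6% against 54.0% for fasting in HFD, 44.3% against 54.4% for fasting in CD, and 69.5% against 47.4% for the interaction. All-gene calls ranged over the alternatives from 1859 to 4265 for fasting in CD, 331 to 2009 for fasting in HFD, 338 to 1768 and 90 to 2101 for the HFD in fed and fasted mice, and 31 to 1066 for the interaction.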
